A study of Mus musculus with 4 samples.

Results

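The genes described here were 10 markers of spermatogonia and of cells entering meiosis, Kit, Stra8, Zbtb16, Dazl, Uchl1, Gfra1, Sall4, Nanos3, Dmrt1 and Sohlh1, out of 37718 gene rows in the deposited counts. They were chosen by name, as markers of germ cells earlier than the diplotene cells that were sorted, and each of the 10 symbols matched 1 gene row. Together they held 85 of the 207562 counted introns. The question was how much RNA of earlier germ cells was carried along into each sorted sample, and whether the Tdrd6-/- samples carried a different amount than the Tdrd6+/- samples.

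The samples were hCD4+ cells taken by magnetic sorting (MACS) from mouse testes at 20 days post partum, 2 samples from Tdrd6+/- and 2 from Tdrd6-/- males, each pooled from at least 4 mice. In both genotypes human CD4 was expressed from the endogenous Tdrd6 promoter, so all 4 samples carried the hCD4 tag and none was wild type. The study describes the sorted preparations as mostly but not purely diplotene cells. Total RNA was depleted of ribosomal RNA, so introns were sequenced along with exons. The files gave 26454326 to 31388750 counts on genes and 9603669 to 13937818 counts on introns per sample. The share of tallied fragments that fell on introns was lowest in Tdrd6-/- replicate 2 (21.94%) and ranged from 27.11% to 30.95% in the other samples. Tdrd6 itself, the targeted gene, was counted 33220 and 39322 times in the Tdrd6+/- samples and 359 and 400 times in the Tdrd6-/- samples (log2 fold change -6.81, SE 0.17, edgeR adjusted p = 8.4e-18), which matched the labels. No source used here says that the 2 samples of a genotype were sorted on separate days, so the p-values measure only the spread between these pools.

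In the testis, spermatogonial stem cells either renew themselves or commit to differentiation, and differentiating spermatogonia then divide and enter meiosis in response to retinoic acid. Zbtb16 (PLZF), Gfra1, Sall4, Nanos3 and Uchl1 are used as markers of undifferentiated spermatogonia. Sohlh1, Dmrt1 and Kit act around the step to differentiation, Stra8 is switched on by retinoic acid as cells enter meiosis, and Dazl is an RNA-binding protein that germ cells need for that entry. Several of the genes are also made by other cells of the testis: Dmrt1 is made by Sertoli cells, Kit by Leydig cells, and Dazl RNA persists in spermatocytes. In these bulk samples, fewer cells of a type and less RNA per cell cannot be told apart.

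The spliced RNA of 4 of the markers is shown by the most counted junction of each (for Sohlh1, 1 of 2 junctions tied at 8 counts), as 30 bases across the joined exons on the coding strand, 5′ to 3′, from GENCODE M21 transcripts of mm10, with the first 15 bases of the downstream exon in capitals. They show the range from a gene whose joined exons were read often in every sample to genes read a few times.
Dazl exons 5 and 6: ggaaacaaaatttatGTACTTATCATGTGC
Uchl1 exons 3 and 4: cccctcacggcccagCATGAAAACTTCAGG
Sohlh1 exons 5 and 6: cattcagtgagccagAGTCTTCCAGCTTGG
Zbtb16 exons 4 and 5: gacagacccatactgGCACGGACATGGCTG
All 4 joins lay in coding sequence, and they were placed by the order of the counted junctions along the chromosome. The Dazl join, across an intron of 87 bp at chr17:50287668-50287754 (minus strand), was read 184 and 180 times in Tdrd6+/- and 250 and 300 times in Tdrd6-/- samples. The Uchl1 join, across chr5:66677073-66679662 (plus strand), was read 59 and 30 times in Tdrd6+/- and 46 and 75 times in Tdrd6-/-. The Sohlh1 join, across chr2:25844673-25845261 (minus strand), was read 1 and 3 times in Tdrd6+/- and 3 and 1 times in Tdrd6-/-. The Zbtb16 join, across an intron of 51957 bp at chr9:48665326-48717282 (minus strand), was read 0 and 4 times in Tdrd6+/- and 1 and 3 times in Tdrd6-/-.

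All 10 markers had at least 1 count in all 4 samples, with mean levels from 0.226 to 27.1 CPM per kb. For Nanos3 this was 1 count in Tdrd6+/- replicate 1, and its junction had no count in any sample. Sall4 had no junction count in the Tdrd6+/- samples. As level, counts were scaled to a common library size (CPM) with edgeR's TMM factors and divided by the length of annotated exon in kb. Dazl stood highest, with 27.1 ± 3.4 CPM per kb (SD, n = 4 samples), rank 2143 of the 19461 genes with at least 10 counts. Uchl1 followed with 5.31 ± 1.30, Dmrt1 with 2.32 ± 0.28 and Stra8 with 1.63 ± 0.70 CPM per kb. The 6 others lay below 1 CPM per kb, at ranks from 13169 to 15479: Gfra1 at 0.543 ± 0.023, Sohlh1 at 0.485 ± 0.152, Zbtb16 at 0.407 ± 0.106, Kit at 0.391 ± 0.033, Nanos3 at 0.334 ± 0.224 and Sall4 at 0.226 ± 0.052. In this order Dazl and Uchl1, Uchl1 and Dmrt1, and Stra8 and Gfra1 did not overlap over the 4 samples, whereas all other neighbours did. Dmrt1 and Stra8 overlapped only because Stra8 reached 2.60 CPM per kb in Tdrd6-/- replicate 2, where Dmrt1 was 2.63. The summed level of the 10 markers was 39.5 and 32.0 CPM per kb in Tdrd6+/- and 38.5 and 45.0 in Tdrd6-/- samples, and Dazl alone made up 67% to 74.1% of it. Without Dazl the sum was 10.2 and 9.48 in Tdrd6+/- and 12.0 and 14.9 in Tdrd6-/- samples.

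**Figure D1:**
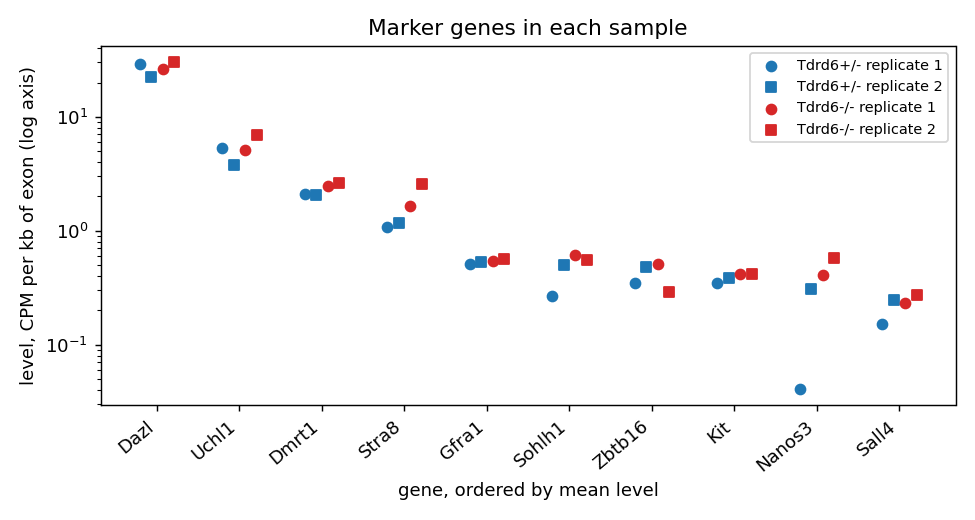
Level of each marker gene in each sample, in CPM per kb of annotated exon on a log axis, with genes ordered by their mean. Colour gives the genotype and shape the replicate number. Dazl lay above 20 CPM per kb in all 4 samples, and the lowest single value, 0.0413 CPM per kb, was that of Nanos3 in Tdrd6+/- replicate 1.

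None of the 10 markers passed the false discovery rate of 0.1 between the genotypes, against 4.80% of the 16555 genes tested (1.02% higher and 3.78% lower in Tdrd6-/-) by edgeR's quasi-likelihood test. At an unadjusted p under 0.05 there were 2 markers, Stra8 and Nanos3, against 14% of all genes tested. DESeq2's Wald test gave an adjusted p for 7 of the 10 markers, not for Nanos3, Sall4 and Sohlh1, and called 0 of the 7, against 736 (5.65%) of the 13024 genes with an adjusted p. The log2 fold change was above 0 for 9 of the 10 markers and for 51.7% of all genes tested, with a median of 0.32 against 0.01 over all genes. For 6 markers both Tdrd6-/- samples lay above both Tdrd6+/- samples in CPM, and for 0 they lay below, whereas over all genes tested the groups did not overlap for 43.5%, of which 20.1% lay above and 23.4% below as a share of all genes. Among these 6 was Nanos3, which was tested only because its Tdrd6-/- samples passed the count filter. The other 9 passed it in all 4 samples.

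**Figure D2:**
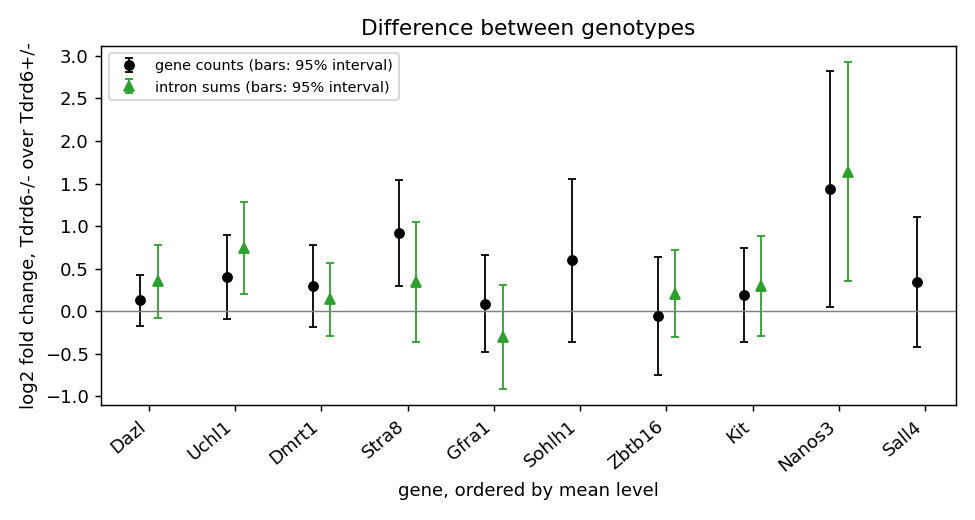
Log2 fold change of each marker gene, Tdrd6-/- over Tdrd6+/- (2 samples each), from gene counts (black circles) and from the summed counts of its introns (green triangles). Bars are approximate 95% intervals derived from the F statistic of edgeR's test. No marker passed the false discovery rate of 0.1 in either test. Sall4 and Sohlh1 have no intron value because their intron counts were too low to be tested.

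Among the markers of undifferentiated spermatogonia, Zbtb16 (ENSMUSG00000066687, chr9:48654297-48836222, minus strand) encodes the zinc finger repressor PLZF, which spermatogonial stem cells need to maintain themselves. Its gene counts were 48 and 71 in Tdrd6+/- and 85 and 49 in Tdrd6-/-. The groups overlapped, with Tdrd6-/- replicate 1 highest and Tdrd6-/- replicate 2 lowest in CPM per kb, and the log2 fold change was -0.06 (SE 0.33, adjusted p = 0.97). Gfra1 (ENSMUSG00000025089, chr19:58235604-58455909, minus strand) is the receptor by which stem cells take up the signal of GDNF. It had 74 and 82 counts in Tdrd6+/- and 95 and 100 in Tdrd6-/-. Its levels of 0.516 and 0.538 against 0.549 and 0.571 CPM per kb did not overlap, with a log2 fold change of 0.09 (SE 0.28, 95% interval -0.49 to 0.66, adjusted p = 0.94). Sall4 (ENSMUSG00000027547, chr2:168748332-168767943, minus strand), a zinc finger transcription factor of germ cells, had 22 and 38 counts in Tdrd6+/- and 41 and 48 in Tdrd6-/-. Its groups overlapped (log2 fold change 0.34, SE 0.37, adjusted p = 0.77), and with 1 sample left out the log2 fold change ran from 0.05 to 0.73.

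Nanos3 (ENSMUSG00000056155, chr8:84173731-84185217, minus strand), an RNA-binding protein of early germ cells, was the least counted marker. Its 1 and 8 counts in Tdrd6+/- stood against 12 and 17 in Tdrd6-/-. All of these are within reach of a few fragments, and the log2 fold change of 1.44 had an SE of 0.67 and a 95% interval from 0.04 to 2.83 (unadjusted p = 0.044, adjusted p = 0.33). It was 0.67 without Tdrd6+/- replicate 1 and 3.44 without Tdrd6+/- replicate 2. The genes of the miRNAs Mir181c and Mir181d lie inside its span on the same strand. Uchl1 (ENSMUSG00000029223, chr5:66676091-66687234, plus strand), a ubiquitin hydrolase abundant in spermatogonia, had 229 and 172 counts in Tdrd6+/- and 265 and 363 in Tdrd6-/-. Tdrd6-/- replicate 2 was highest, but Tdrd6-/- replicate 1, at 5.14 CPM per kb, lay below Tdrd6+/- replicate 1, at 5.36, and the log2 fold change was 0.40 (SE 0.24, adjusted p = 0.49). With 1 sample left out it ran from 0.18 to 0.69. Uchl1, Gfra1 and Sall4 each overlap a gene on the opposite strand (Uchl1os, Gm16277 and Gm14261), and whether the counting used strand is not given in the sources used here.

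Of the genes around differentiation, Sohlh1 (ENSMUSG00000059625, chr2:25842995-25847248, minus strand), a helix-loop-helix factor that promotes it, had 9 and 18 counts in Tdrd6+/- and 25 and 23 in Tdrd6-/-. The groups did not overlap, but the Tdrd6+/- samples (0.267 and 0.501 CPM per kb) lay further from each other than the higher of them lay from the lower Tdrd6-/- sample (0.558), and the log2 fold change was 0.60 (SE 0.46, adjusted p = 0.64), or from 0.23 to 1.13 with 1 sample left out. Dmrt1 (ENSMUSG00000024837, chr19:25505618-25604329, plus strand), which holds spermatogonia back from meiosis and is also made by Sertoli cells, had 143 and 149 counts in Tdrd6+/- and 204 and 218 in Tdrd6-/-. Its replicates were close together and the groups did not overlap, at 2.08 ± 0.03 against 2.56 ± 0.10 CPM per kb (SD, n = 2 each), for a log2 fold change of 0.29 (SE 0.23, 95% interval -0.19 to 0.78, adjusted p = 0.65). Kit (ENSMUSG00000005672, chr5:75574916-75656722, plus strand), the receptor for stem cell factor that differentiating spermatogonia depend on, had 81 and 95 counts in Tdrd6+/- and 117 and 119 in Tdrd6-/-. Its Tdrd6-/- samples were higher by a log2 fold change of 0.19 (SE 0.27, adjusted p = 0.84). Fragments were found along all of Kit, on 29 of its 30 exon segments and on all 21 of its annotated junctions.

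Of the genes of meiotic entry, Dazl (ENSMUSG00000010592, chr17:50279395-50293636, minus strand) had 2927 and 2401 counts in Tdrd6+/- and 3202 and 3683 in Tdrd6-/-. With its depth it had the narrowest interval of the markers, from -0.17 to 0.43 around a log2 fold change of 0.13 (SE 0.15, adjusted p = 0.79). Its groups overlapped, since Tdrd6+/- replicate 1 (29.3 CPM per kb) lay between the 2 Tdrd6-/- samples (26.5 and 30.1). Stra8 (ENSMUSG00000029848, chr6:34920163-34939344, plus strand) came nearest to the threshold. It had 51 and 59 counts in Tdrd6+/- and 95 and 150 in Tdrd6-/-, which gave 1.08 and 1.18 against 1.67 and 2.60 CPM per kb. The Tdrd6-/- samples differed from each other by more than the nearer of them differed from the Tdrd6+/- samples. The log2 fold change was 0.92 (SE 0.30, 95% interval 0.30 to 1.54, unadjusted p = 0.0056, adjusted p = 0.11). The value rested on Tdrd6-/- replicate 2: without it the log2 fold change was 0.57 with an adjusted p of 0.85, and without Tdrd6-/- replicate 1 it was 1.20 with an adjusted p of 0.026.

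The fragments of Stra8 were spread unequally over its exon segments, whose lengths the files do not give. The files divide the gene into 16 exon segments numbered 5′ to 3′, of which 13 held a count and segment 12 held the most (13, 15, 27 and 60 counts, in the order Tdrd6+/- replicates 1 and 2, Tdrd6-/- replicates 1 and 2). Segments 3 to 7 and 8 to 15, split after the values were seen, are given as a description. Segments 3 to 7 held 16 and 32 counts in Tdrd6+/- and 11 and 72 in Tdrd6-/-, with the lowest and the highest sample in the same genotype. Segments 8 to 15 held 99 and 114 counts in Tdrd6+/- and 204 and 301 in Tdrd6-/-, so that the 2 groups were apart. The 5′ block made up 13.9% and 21.9% of the 2 blocks in Tdrd6+/- and 5.12% and 19.3% in Tdrd6-/- samples. A fragment can count on several segments, so these sums exceed the gene counts.

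**Figure D3:**
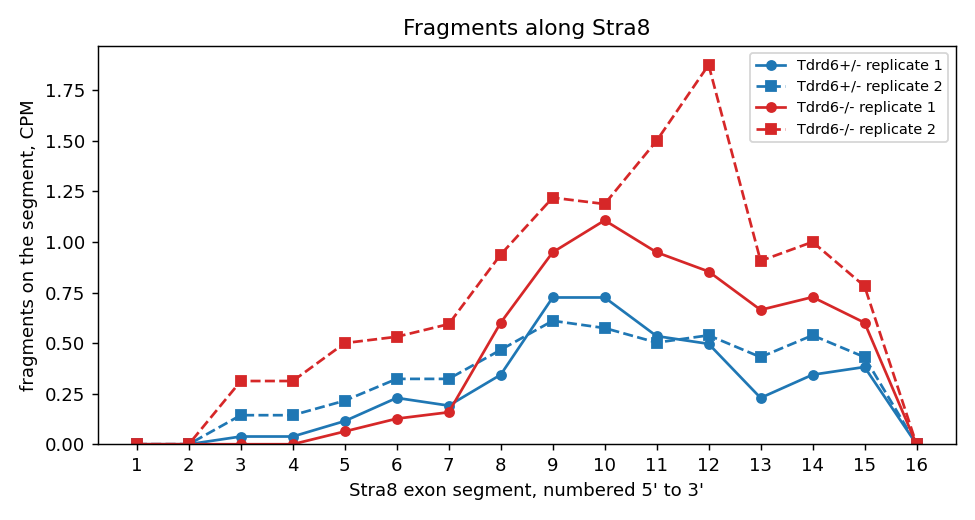
Fragments counted on each of the 16 exon segments of Stra8, numbered 5′ to 3′, in CPM, with 1 line per sample. From segment 8 to segment 15 both Tdrd6-/- lines lie above both Tdrd6+/- lines, whereas from segment 3 to segment 7 Tdrd6-/- replicate 2 is highest and Tdrd6-/- replicate 1 lowest.

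Gfra1 was counted mostly at its 3′ end. Of the exon counts on Gfra1, 451 lay on segments 1 to 10, counted along the chromosome and so at the 3′ end of this minus-strand gene, and 15 on the other 18 segments 5′ of them, with 2 to 6 of the latter in each sample. This split too was made after the values were seen, and the lengths of the segments are not given. The opposite-strand gene Gm16277 overlaps Gfra1 at this end, at chr19:58235604-58236047. The part of segment length and of this overlap in the counts was not tested. Only 7 of the 17 annotated junctions of Gfra1 had a count. Junction reads per gene count, which depend on how many exons a gene has and how many of its fragments are spliced, were 0.168 for Gfra1 and 0.123 for Zbtb16, against a median of 0.394 over 13659 genes. For Sall4 this ratio was 0.047, from 0 junction counts in Tdrd6+/- and 4 and 3 in Tdrd6-/- samples, and Nanos3 had 0 counts on its junction in all 4 samples. At the other end, Uchl1 had 1.05 and Stra8 0.811 junction reads per gene count, at percentiles 97.8 and 90.3 of those genes. The deposited counts held no row for an unannotated junction of any of the 10 markers, so these could not be assessed.

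The introns of the markers gave a further count of the same genes in the same libraries, mostly of unspliced RNA. Summed over the introns of each gene, 8 of the 10 markers could be tested and 0 passed the false discovery rate of 0.1, against 1.42% of 15025 genes tested (0.173% higher and 1.25% lower). At an unadjusted p under 0.05 there were 2 of the 8, Uchl1 and Nanos3, against 12.8% of all genes tested. DESeq2's Wald test gave an adjusted p only for Dazl and Dmrt1 and called neither, so it says nothing of the other 6. The log2 fold change was above 0 for 7 of the 8 and for 57.0% of all genes, with a median of 0.32 against 0.07. Of the 8, 3 lay higher in both Tdrd6-/- samples and 1, Gfra1, lower, against 22.1% and 21.4% of all genes tested, or 43.5% in either direction.

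Uchl1 had the intron sums nearest to the threshold, 108 and 122 counts in Tdrd6+/- and 217 and 154 in Tdrd6-/-, for a log2 fold change of 0.74 (SE 0.27, adjusted p = 0.19). Stra8, which stood out in the gene counts, had 42 and 49 intron counts in Tdrd6+/- and 67 and 45 in Tdrd6-/-. In CPM the Tdrd6-/- samples were higher, but the log2 fold change was 0.35 (SE 0.36, adjusted p = 0.72). For Dazl the intron sums were 730 and 536 in Tdrd6+/- and 763 and 757 in Tdrd6-/- (log2 fold change 0.35, SE 0.22, adjusted p = 0.50), and the groups overlapped. Nanos3, with 5 and 4 against 12 and 15 counts on its single counted intron, passed the filter only through the Tdrd6-/- samples (log2 fold change 1.64, SE 0.65, adjusted p = 0.24). Gfra1 had 103 and 102 intron counts in Tdrd6+/- and 109 and 54 in Tdrd6-/- (log2 fold change -0.30, SE 0.31, adjusted p = 0.71), the opposite sign to its gene counts. Kit, with 71 and 129 against 162 and 81, overlapped between the genotypes (log2 fold change 0.30, SE 0.30, adjusted p = 0.71). Sall4 (3 and 5 against 5 and 18) and Sohlh1 (5 and 8 against 10 and 6) were too low to be tested.

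Zbtb16 and Dmrt1 were read more often in introns than in exons in all 4 samples, the only markers for which this held. Zbtb16 had 217 and 357 intron counts in Tdrd6+/- and 550 and 131 in Tdrd6-/-, or 4.52, 5.03, 6.47 and 2.67 intron counts per gene count. Dmrt1 had 680 and 675 in Tdrd6+/- and 971 and 498 in Tdrd6-/-, or 4.76, 4.53, 4.76 and 2.28 per gene count. These ratios, which grow with intron length, put Zbtb16 at percentile 94.5 and Dmrt1 at percentile 92.9 of 13659 genes, whose median was 0.514, while Dazl, with 0.228 intron counts per gene count, was at percentile 25.2. Most of the Zbtb16 counts, 677 of 1255, lay on its intron 5, and 1571 of the 2824 Dmrt1 counts on its intron 4. Introns are numbered along the chromosome, so those of Zbtb16, on the minus strand, count from its 3′ end. For both genes the highest and the lowest sample belonged to Tdrd6-/-. Neither passed the false discovery rate of 0.1 between genotypes in edgeR's test (Zbtb16 log2 fold change 0.21, SE 0.26, adjusted p = 0.77, and Dmrt1 0.14, SE 0.22, adjusted p = 0.82). For Zbtb16 the sign rested on Tdrd6-/- replicate 1: without it the log2 fold change was -0.87, in the opposite direction. For 8 of the 10 markers the intron to gene ratio was lowest in Tdrd6-/- replicate 2, the sample whose intron share was lowest over all genes too. The part of this library-wide share in the intron values was not tested.

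**Figure D4:**
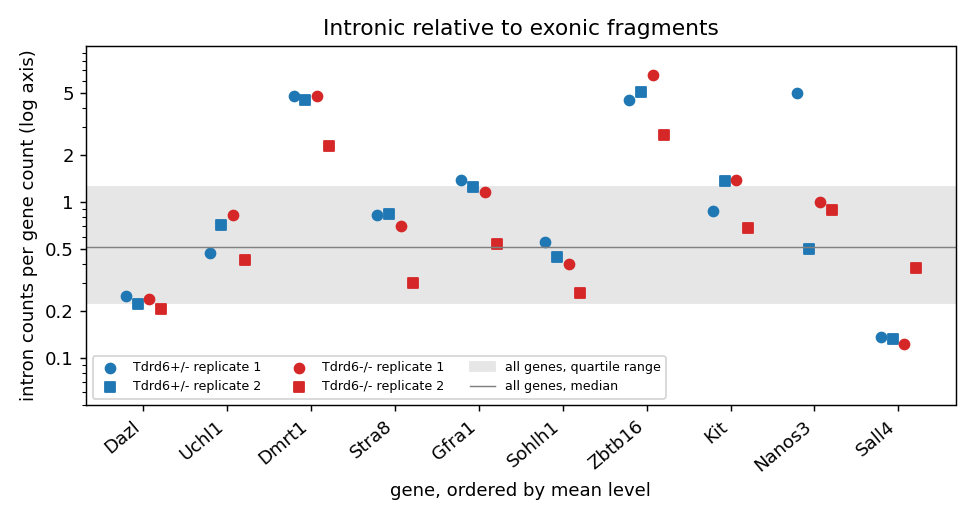
Intron counts per gene count for each marker gene in each sample, on a log axis. The grey line is the median and the grey band the range from the lower to the upper quartile of 13659 genes with at least 50 gene counts. Zbtb16 and Dmrt1 lie above the band in all 4 samples, and Tdrd6-/- replicate 2 is the lowest sample for 8 of the 10 genes.

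Whether any single intron of the markers changed its share of the gene's intron counts was tested with DEXSeq's model. Of the 85 introns, 48 had at least 10 counts and 7 passed the filter on the mean count, introns 1, 4 and 10 of Dazl, 2 and 4 of Dmrt1, and 3 and 5 of Zbtb16, numbered along the chromosome. None of the 7 was called (adjusted p from 0.74 to 1.00), against 1.94% of 28903 introns tested over all genes (0.716% with a higher and 1.22% with a lower share in Tdrd6-/-). At an unadjusted p under 0.05 there were 0 of the 7, against 10.5% of all introns tested. Kit intron 7, with 63 counts, had an unadjusted p of 0.039 (log2 fold change -1.21) but lay below the filter on the mean count. edgeR's usage test also called 0 of the 7, but called only 2 of 127248 introns over all genes.

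In 3 lists of other genes of the same stages, 1 gene in all passed the test on gene counts. Of 19 further genes of undifferentiated spermatogonia, 11 could be tested. Of these 0 rose and 1 fell, against 1.02% and 3.78% of all genes tested. The gene that fell was Egr4, a zinc finger transcription factor, with 21 and 30 counts in Tdrd6+/- and 11 and 10 in Tdrd6-/- (log2 fold change -1.50, SE 0.46, adjusted p = 0.085). The call was lost in all 4 fits that left out 1 sample and in 5 of 9 other settings. The median log2 fold change of the 11 was -0.09, against 0.32 for the 10 markers. It was above 0 for 4 of the 11, against 9 of the 10 markers and 51.7% of all genes tested. Both Tdrd6-/- samples lay above both Tdrd6+/- samples in CPM for 0 of the 11 and below for 4. Over all genes tested these shares were 20.1% and 23.4%. Id4, a helix-loop-helix inhibitor used as a marker of stem cells, had the highest level of that list. Its mean was 17.4 CPM per kb, against 0.543 for Gfra1 and 0.407 for Zbtb16. It had 2068 and 1655 counts in Tdrd6+/- and 1909 and 2227 in Tdrd6-/-, and its groups overlapped. Which cells the Id4 RNA came from was not tested. Counts differed widely within the list: Nanos2, Eomes and Pax7 had 0 to 2 per sample, Etv5 had 98 to 104 and Bcl6b 95 to 133. Of 6 further genes of differentiating spermatogonia 5 were tested, and of 15 genes of meiotic entry and early prophase 12 were tested, and 0 of either list passed, though Crabp1 did without Tdrd6-/- replicate 1, and Rec8 did without Tdrd6+/- replicate 2 and in a fit with a crossed block, which paired replicate 1 of either genotype with replicate 2 of the other. The summed level of the list of meiotic entry and early prophase was 285 and 242 CPM per kb in Tdrd6+/- and 252 and 261 in Tdrd6-/-. It lay above the sum of the 10 markers in all 4 samples. Meioc, which keeps the meiotic programme going, and Hormad1, a protein of the chromosome axis, were each at the highest level in 2 of the 4 samples. With means of 94.2 and 93.4 they held most of this sum. The other counted genes of the list ran from 0.0572 (Mei4) to 27.2 (Spo11). The part of earlier germ cells in this sum was not tested.

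In sum, the genes of the sorted stage stood far above these lists. The 10 genes of late pachytene and diplotene cells summed to between 3968 and 4827 CPM per kb, led by Ldhc, the lactate dehydrogenase of spermatocytes. Ldhc (mean 2591 CPM per kb) and Hspa2 (838.5) held most of this sum. Single genes of the list reached down to Aurkc, at 12.0, which lay below Dazl, Meioc and Hormad1. Of the 10 genes 0 rose and 2 fell, against 1.02% and 3.78% of all genes tested. Those that fell were Clgn, a chaperone of the endoplasmic reticulum (log2 fold change -0.70, adjusted p = 0.0027), and Piwil1, a partner of piRNAs (log2 fold change -0.44, adjusted p = 0.077). With 1 sample left out Clgn was called in 4 of 4 fits and Piwil1 in 1, only that without Tdrd6+/- replicate 2, and in 9 other settings they were called in 8 and 5. Of 8 spermatid genes 4 were tested and 2 rose, against 1.02% of all genes tested, Spaca1 (log2 fold change 0.83, adjusted p = 0.036) and Acrv1 (0.96, adjusted p = 0.057), both proteins of the acrosome. Both calls were lost without Tdrd6+/- replicate 1, without Tdrd6-/- replicate 1 and with no filter on low counts, and that of Spaca1 also without Tdrd6-/- replicate 2. These were calls of the gene counts. In the intron sums 2 of the 8 spermatid genes could be tested. Of these Acrv1 passed edgeR's test (log2 fold change 1.52, SE 0.39, adjusted p = 0.030), against 0.173% of all genes tested that were called higher. It did not pass there with total-count scaling. In gene counts the list summed to 10.2 and 13.8 CPM per kb in Tdrd6+/- and 18.8 and 18.6 in Tdrd6-/- samples.

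Markers of somatic cells of the testis were present in all samples. The 10 Sertoli cell genes were all tested, 0 passed, and 9 had a log2 fold change above 0 (median 0.38), against 51.7% of all genes tested (median 0.01). They summed to 52.5 and 44.0 CPM per kb in Tdrd6+/- and 55.2 and 72.6 in Tdrd6-/-, the same order of samples as Uchl1 and the 10 markers' sum at the top and the bottom: Tdrd6-/- replicate 2 was highest and Tdrd6+/- replicate 2 lowest. Aard had the highest level of the list (mean 25.3 CPM per kb, followed by Clu with 13.7) and so weighed most in this sum. Aard, Cldn11, Rhox5 and Amh were each highest and lowest in these same samples, but the other genes of the list were not. Clu and Inhbb were lowest in Tdrd6+/- replicate 1. Wt1, Gata4 and Fshr were highest in Tdrd6-/- replicate 1, and Sox9 in Tdrd6+/- replicate 1. Wt1 was lowest in Tdrd6-/- replicate 2, at 2.935 against 4.369 CPM per kb in Tdrd6-/- replicate 1. The Sertoli cell gene introns summed highest in Tdrd6-/- replicate 1, at 834 CPM against 509, 604 and 529 in the other samples, as did those of Zbtb16 and Dmrt1. The Leydig cell gene introns summed to 17.2 and 18.9 CPM in Tdrd6+/- and 28.1 and 10.9 in Tdrd6-/-, highest and lowest in the same samples as Zbtb16. Among the genes in this sum only Lhcgr had both its highest and its lowest value in these samples. It was at 7.28 and 9.67 CPM in Tdrd6+/- and 17.4 and 3.33 in Tdrd6-/-. Cyp17a1, Cyp11a1, Hsd3b1 and Star did not. Of 6 Leydig cell genes 5 were tested, with sums of 2.84 and 2.32 against 3.16 and 2.21 CPM per kb. Of 4 peritubular genes 3 were tested, with sums of 1.25 and 1.46 against 1.71 and 1.59. The 5 macrophage genes summed to 1.44 and 1.58 against 2.58 and 1.19, and the 4 endothelial genes to 0.518 and 0.498 against 0.519 and 0.436. No gene of these somatic lists passed the test with all 4 samples and without a block, and no gene of them was at 0 in all 4 samples. In the gene counts Aard passed without Tdrd6+/- replicate 1 (log2 fold change 0.80), without Tdrd6-/- replicate 1 (0.79) and with the crossed block (0.47). In the intron sums Cyp17a1 passed without Tdrd6+/- replicate 2 (log2 fold change -2.54), and Lhcgr without either Tdrd6-/- sample, at -1.35 without replicate 1 and 1.04 without replicate 2. The part of these cells in the values of Uchl1, Dmrt1, Kit and Zbtb16 was not tested.

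**Figure D5:**
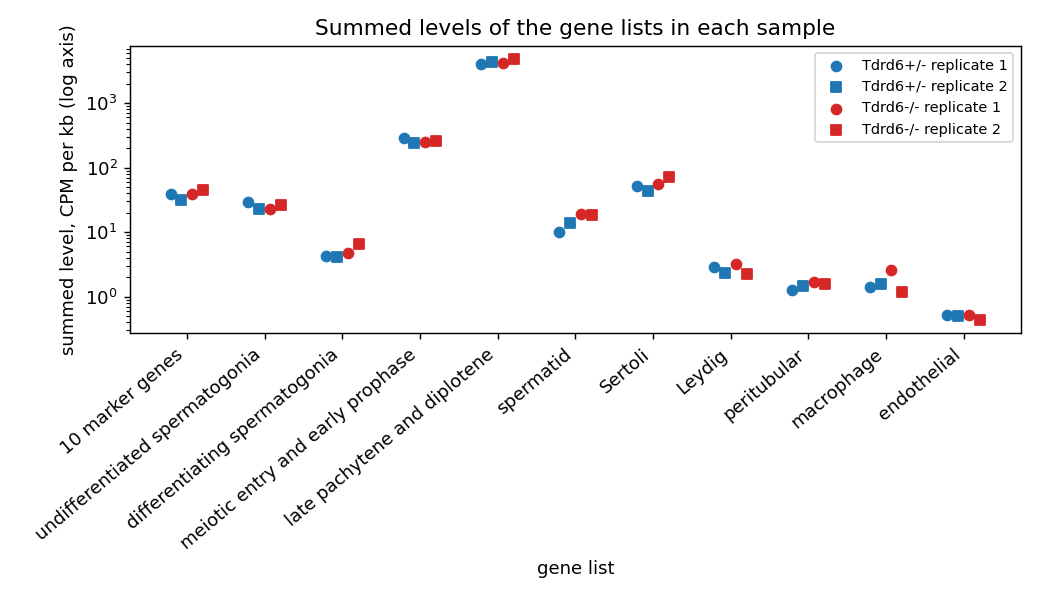
Summed level of each gene list in each sample, in CPM per kb on a log axis. The late pachytene and diplotene genes lie highest, between 3968 and 4827 CPM per kb, and the 10 marker genes lie between 32.0 and 45.0.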

How the data were processed

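Per the labels and the study's methods, RNA of 2 Tdrd6+/- and 2 Tdrd6-/- samples was sequenced as paired-end fragments, converted with bcl2fastq 1.8.4 (the submitters' processing notes), aligned to mm10 with GSNAP and annotated with Ensembl release 75. The authors deposited whole-number counts that were not normalized, per intron, and per gene, exon segment and junction. The counting program and its use of strand are not given in the sources used here. Depth was 26454326 to 31388750 gene counts per sample, and counting error is widest for markers under 50 counts per sample.

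The members and all gene lists were chosen with earlier results of these data known. Members and Tdrd6 were named in full; of other lists, genes past the threshold without overlap between genotypes (up to 4 per direction) and some of the genes with the highest level. Genes chosen outside this rule, after their values were seen, are Nanos2, Eomes, Pax7, Etv5, Bcl6b, Hormad1, Spo11, Mei4, Hspa2 and Aurkc, and Kit intron 7. The Sertoli cell genes other than Aard were named in full after their values were seen. Crabp1, Rec8, Cyp17a1 and Lhcgr, also outside the rule, passed only under an alternative.

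Gene counts and intron sums were tested over all genes with edgeR 4.0.16 in R 4.3.3 (TMM, filterByExpr with a minimum count of 10, quasi-likelihood test, Benjamini-Hochberg adjustment, false discovery rate 0.1). Their SE was derived as the absolute log2 fold change divided by the square root of the F statistic. The 95% intervals use this SE with a t quantile and are approximate. Levels are CPM per kb of GENCODE M21 union exon length. Intron usage was tested with DEXSeq's model in DESeq2 1.42.0 (likelihood ratio test, at least 10 counts, mean filter 85.5). Tallies that name no intron were left out. Features were placed by order where numbers matched the annotation. The scripts were tested on simulated data. Exact permutation tests of 2 against 2 cannot go below p = 0.33 and were not used. Alternatives were other scalings, filters and tests, a stricter threshold, a replicate block, and leaving out each sample.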

Additional observations from a re-analysis of the deposited data

How the results depend on the processing

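No marker was called in the gene counts except Stra8, under 3 alternatives: total-count scaling (1 marker, log2 fold change 1.00, adjusted p = 0.095), the block with crossed numbers (1, adjusted p = 0.034), which was chosen after seeing the data, and without Tdrd6-/- replicate 1. Leaving out 1 sample at a time gave 0 to 1 markers called, and 0 to 2 in the intron sums, where without Tdrd6-/- replicate 1 Zbtb16 (adjusted p = 0.051) and Sall4 (log2 fold change 2.40, adjusted p = 0.080) passed, the second of which was below the filter with all 4 samples. In these fits the lone sample of a genotype is assumed to vary like the others. Member introns called for usage were 0 throughout. Over the alternatives the log2 fold change of Stra8 ran from 0.57 to 1.20 and its adjusted p from 0.026 to 0.85.

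The calls over all genes moved more. For gene counts 75 genes passed with no filter, against 794, and 257 to 1064 with 1 sample left out. For intron sums 2 passed with total-count scaling, which moved the median log2 fold change of all genes from 0.07 to 0.22, 378 with DESeq2's Wald test, 82 with the crossed block, 112 at a false discovery rate of 0.05 and 4 to 951 with 1 sample left out, against 214. For intron usage 2 passed with edgeR's usage test, 881 with the replicate block, 327 at a false discovery rate of 0.05 and 4 to 1175 with 1 sample left out, against 561. The cause was not tested. With the replicate block 1046 genes passed in the gene counts and 189 in the intron sums, with 0 markers among them (Stra8 adjusted p = 0.12). Same-numbered samples did not deviate together (correlation of deviations from the group means -0.107 over 12347 genes for gene counts and -0.0855 over 11335 genes for intron sums), so the numbers were not taken as pairs.

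Directions turned in some weak values. With total-count scaling the gene count log2 fold change of Zbtb16 was 0.032, and with edgeR's usage test that of Zbtb16 intron 5 was 0.034. With 1 sample left out at a time, gene count log2 fold changes ran from -0.52 to 0.30 for Zbtb16 and from -0.045 to 0.34 for Dazl. Those of intron sums ran from -0.10 to 0.82 for Kit, from -0.87 to 0.80 for Zbtb16 and from -0.17 to 0.38 for Dmrt1. Those of intron usage ran from -0.54 to 0.27 for Zbtb16 intron 5, from -0.21 to 0.81 for Zbtb16 intron 3, from -0.015 to 0.31 for Dazl intron 1 and from -0.14 to 0.030 for Dmrt1 intron 4. Depth limited Nanos3, Sohlh1 and Sall4 most, whose gene counts were at most 48 in any sample.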
